A study of Mus musculus with 14 samples.

Results

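The transcripts described here encode the kinetochore, its inner centromere partners and the spindle checkpoint of the mouse, together with a few spindle motors. They were chosen by gene symbol alone: the CENP genes with a one-letter suffix from a to x, the NDC80, MIS12 and KNL1 subunits, the BUB and MAD genes with Ttk, the passenger complex with both its kinases, the shugoshins, Zwint, Zw10, Kif2c, Kif11, Kif18a and Tpx2. The rule found 46 genes among 22498 symbols, and no measured value entered it. All 46 were among the 13455 genes tested, which are those that reached 1 FPKM in 2 libraries or more, although Cenpb reached 1 FPKM in donor cells only. FPKM is fragments per kilobase of transcript and per unit of library depth, that is of mapped fragments, so levels of different genes can be set side by side.

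The study sequenced RNA from mouse embryos. Some arose by in vitro fertilisation (IVF), others by nuclear transfer from a somatic cell (SCNT), where the nucleus of a body cell takes the place of the oocyte nucleus. There were 14 libraries in 7 groups of 2. A growth protocol entered alike for all of them describes adult BDF1 females superovulated with 7.5 IU PMSG and 7.5 IU hCG, hormones that ripen and release oocytes. Donor cumulus cells, the ovarian cells around the oocyte, were (C57BL/6J x CAST/EiJ) F1 by their strain label, with about 1000 cells a library. IVF embryos came from C57BL/6J oocytes and CAST/EiJ sperm, as pools of 32 and 31 at the 1-cell and 25 and 25 at the 2-cell stage. SCNT embryos combined the donor nuclei with B6D2F1 oocytes, as pools of 36 and 36 at the 1-cell and 40 and 40 at the 2-cell stage. A further pair of SCNT 2-cell groups, with 25 embryos a library, overexpressed Kdm4d, a histone H3 lysine 9 demethylase, or a mutant of it. The mutation, the way of overexpression, and the hour at which embryos were taken are unstated in the labels. Oocyte strain and kind of embryo cannot be told apart in any comparison of SCNT with IVF, and the BDF1 females named as the cumulus source conflict with the strain label.

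The kinetochore is the protein layer on each centromere that holds spindle microtubules. Its inner part, built on nucleosomes with the histone variant CENP-A, recruits the outer KNL1, MIS12 and NDC80 complexes, and NDC80 binds the microtubule. The chromosomal passenger complex (INCENP, survivin, borealin and an Aurora kinase) releases wrong attachments, while the checkpoint proteins hold back anaphase until every kinetochore is attached. A mouse oocyte stores many of these transcripts, and in the mouse the embryo's own genome becomes active mainly at the 2-cell stage.

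The sequences before the start sites of Cdca8, Kif2c, Cenpq and Ttk are shown because these genes carried the largest 2-cell differences between SCNT and IVF embryos among members without uncertain sequence: the first 3 were the lowest in SCNT and Ttk the highest. Each is the 120 bases that end just before the start site, 5′ to 3′ on the gene's strand, from RefSeq on GRCm38.p6. Capitals mark a CCAAT box, or its reverse complement ATTGG, and the core of the cell cycle homology region, whose letters are TTTGAA or in reverse complement TTCAAA.
Cdca8 (chr4:124936918-124937037, minus strand): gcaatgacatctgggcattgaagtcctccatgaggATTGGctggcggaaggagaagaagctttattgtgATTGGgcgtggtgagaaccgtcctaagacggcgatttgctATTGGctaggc
Kif2c (chr4:117178773-117178892, minus strand): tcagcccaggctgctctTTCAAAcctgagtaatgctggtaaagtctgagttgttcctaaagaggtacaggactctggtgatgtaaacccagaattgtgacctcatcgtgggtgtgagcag
Cenpq (chr17:40934575-40934694, minus strand): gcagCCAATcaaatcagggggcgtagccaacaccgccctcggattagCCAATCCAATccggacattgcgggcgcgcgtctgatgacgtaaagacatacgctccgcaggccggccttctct
Ttk (chr9:83834569-83834688, plus strand): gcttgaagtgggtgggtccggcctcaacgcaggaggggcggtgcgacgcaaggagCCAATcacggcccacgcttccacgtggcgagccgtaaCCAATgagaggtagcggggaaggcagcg

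The stretches of Cdca8, Cenpq and Ttk hold CCAAT, and that of Kif2c holds TTTGAA and no CCAAT. RefSeq windows around start sites (250 bases before and 50 after) were found for 41 of the 46 genes, as 47 windows. Those of Aurkb, Incenp, Nsl1, Spc24 and Tpx2 were not found. In 39 of the 47 windows the bases after the start site lay in a transcript of the gene, read in sense. For the rest this was not shown. CCAAT, on either strand, occurred in 61.7% of the 47 windows and in 37.41% of all 32851 windows. TTTGAA occurred in 36.17% against 17.89%, the E2F form GCGGGAA in 21.28% against 4.6%, and the E2F form GCGCCAA in 6.38% against 2.45%. Both strands were searched, and the last motif overlaps CCAAT where a T follows it. A match describes letters only.

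Kdm4d itself checked the labels. It lay at or below 0.759 FPKM in all 10 libraries without overexpression and reached 8879 and 2255 FPKM in Kdm4d and 723 and 283 in mutant libraries, so both mutant libraries held less of it. Relative to the deepest library, depth was 0.508 and 0.415 with Kdm4d, 0.462 and 0.497 with the mutant, 0.59 and 0.586 in donor cells and at least 0.779 elsewhere, while absolute depth is unknown. Differences below are on the log2(FPKM + 1) scale, which understates the change of low genes. On it the root mean square SD between replicates over the 46 genes was 0.104 for IVF and 0.112 for SCNT embryos of 1 cell, 0.165 and 0.164 for those of 2 cells, 0.192 for donor cells, 0.319 with Kdm4d and 0.309 with the mutant. Tests are limma with Benjamini-Hochberg adjustment over the 13455 genes, and a gene is called at an adjusted p under 0.05. The fit shares 1 variance per gene among all groups, although the Kdm4d and mutant replicates spread more. Nothing says that replicates were separate experiments, so p-values measure only the spread between these libraries. Where a pair of groups is compared, the genes with the largest changes were named only if their groups did not overlap. For them the lack of overlap is part of the choice and adds no support. The share of all genes without overlap was not counted, so elsewhere it only describes the values. In bulk samples fewer cells of a type and less RNA per cell cannot be told apart.

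Sequence shared with other genes makes 3 members uncertain. Aurkc shared 63.7% of its 50-base stretches with other transcripts (Gm12463, Gm6909 and Gm7789), Sgol2 48.3% (Kctd18 and Sgo2b) and Cenpo 27.0% (Adcy3 and Ptrhd1), and no other member more than 6.16%. Exons of other genes covered 35.0% of the Sgol2, 22.5% of the Cenpo and 12.6% of the Cenpp exon bases. How reads with several places were counted, and whether strand was used, the sources used here do not state. Positions of genes are on mm9.

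**Figure D1:**
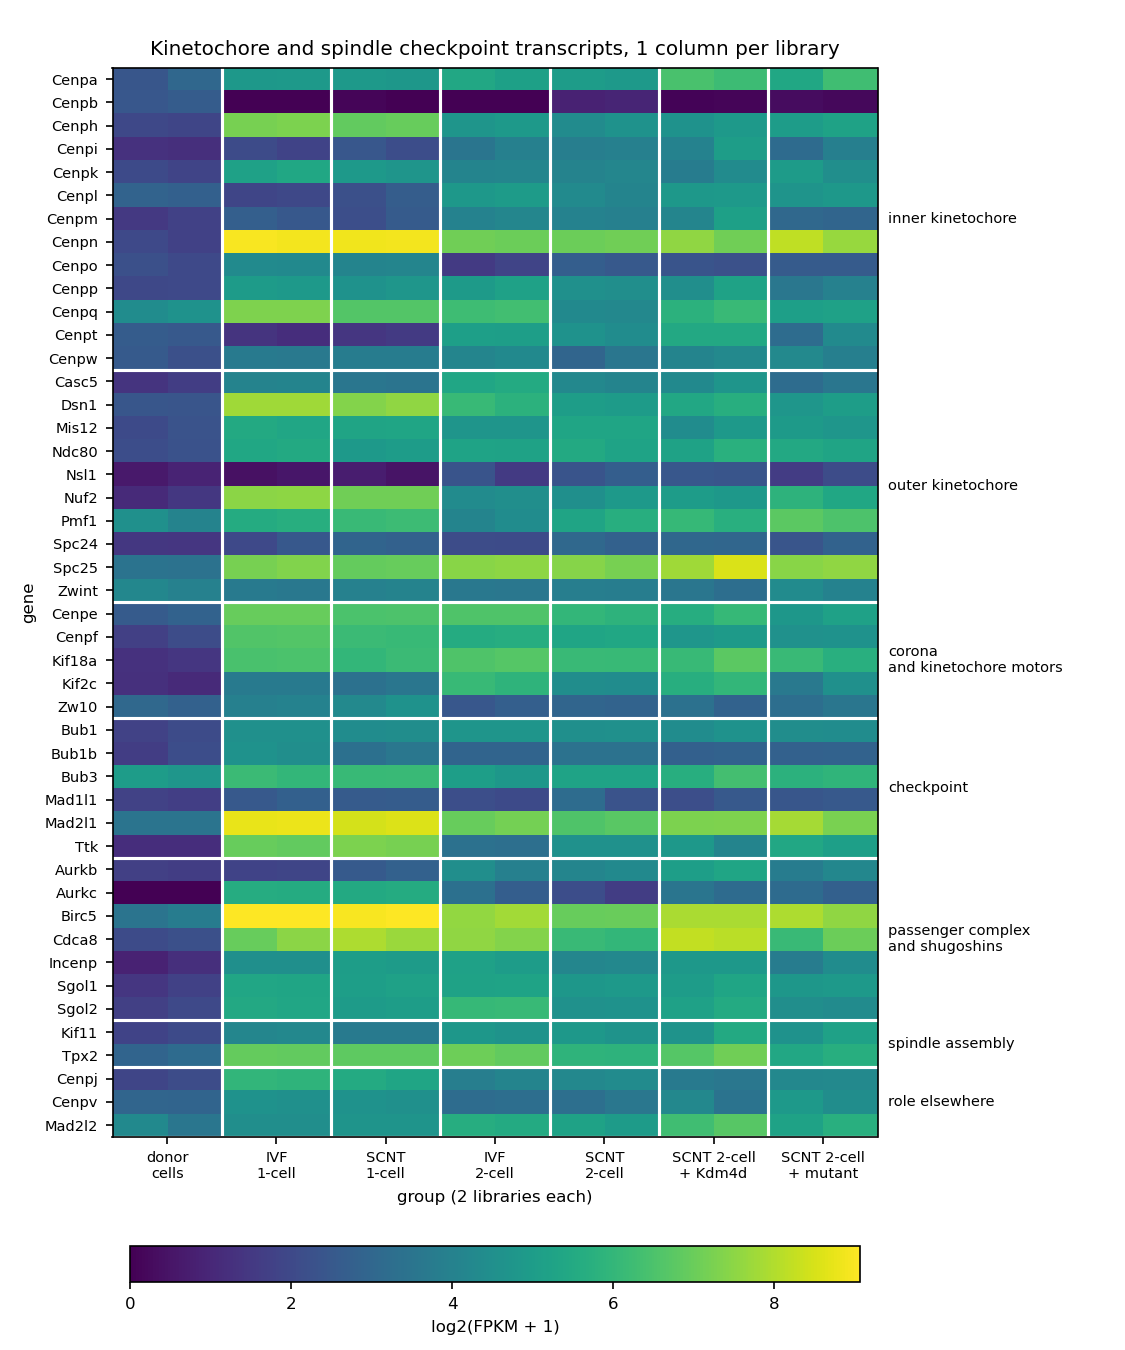
Each line of the map is 1 of the 46 genes, grouped by role, and each column 1 of the 14 libraries; colour gives log2(FPKM + 1). Donor cells are low in nearly every gene, the 1-cell libraries hold the highest values (Birc5, Cenpn and Mad2l1), and Cenpb is near 0 in every embryo library.

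Donor cells held little RNA for this machinery. The median of the 46 genes was 3.06 and 3.32 FPKM in donor libraries against 32.9 and 34.0 in IVF 1-cell libraries. Against IVF 1-cell embryos 38 of 46 were lower, where 35.5% of all genes were, and 4 were higher, where 42.4% were. The median difference was −2.72 for the 46 and 0.13 for all genes, and −2.70 for the 46 after quantile normalization.

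Cenpn, a reader of CENP-A nucleosomes (chromosome 8, 119445640 to 119465403), had 3.01 and 2.39 FPKM in donor cells against 499 and 472 in IVF 1-cell embryos (log2 −7.04, SE 0.19, adjusted p = 2.07e-11). Nuf2, of the NDC80 complex, had 1.12 and 1.74 against 180.1 and 182 (log2 −6.24, SE 0.19, adjusted p = 3.88e-11). Ttk, the kinase that starts checkpoint signalling, had 1.29 and 1.29 against 123 and 118 (log2 −5.73, SE 0.20, adjusted p = 1.46e-10). Donor and embryo libraries were far apart in each of these genes. Aurkc was listed at 0 in both donor libraries and stood at 47.8 and 46.9 in the embryos, within the uncertainty of its sequence.

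The 4 genes higher in donor cells were Cenpb, Cenpt, Cenpl and Zwint. Cenpb, whose protein binds a centromere repeat (chromosome 2, 131003025 to 131005748), had 4.55 and 5.23 FPKM against 0.00730 and 0.00785 (log2 2.55, SE 0.12, adjusted p = 1.17e-09). It passed the filter of 1 FPKM through its donor libraries alone. Its test and its place among the 4 therefore lend no support to the difference. Cenpt, which links the inner kinetochore to NDC80, had 5.2 and 4.8 against 1.55 and 1.27 (log2 1.32, SE 0.27, adjusted p = 0.000756), and Cenpl 6.42 and 5.93 against 2.72 and 2.91 (log2 0.91, SE 0.17, adjusted p = 0.000311). Neither group reached into the other. Zwint, a partner of KNL1, had 17.5 and 15 against 12.4 and 11.3 (log2 0.42, SE 0.16, adjusted p = 0.0302) and lost its call without donor library 1 or without either IVF 1-cell library. The labelled cell types showed in their markers: 15 cumulus and granulosa markers summed to 26634 and 20315 FPKM in donor and 1.57 and 2.18 in IVF 1-cell libraries, and 12 oocyte markers to 2.0 and 3.01 against 13042 and 12611. A list of 6 immune markers summed to 232 and 126 FPKM in donor libraries, and its part in the donor values was not tested.

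At the 1-cell stage few of these genes passed the test between SCNT and IVF embryos. Of the 46, 2 were lower in SCNT, where 0.974% of all genes were, and 0 were higher by limma, where 1.34% were. At an unadjusted p under 0.05, 7 were higher and 9 lower, and how many of all genes passed that threshold was not counted. A fit to these 4 libraries alone called 5 higher and 16 lower, beside 1612 and 1167 of the 13455 genes tested. Group weights called 9 and 16, beside 2548 and 1530 of all genes.

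Bub1b encodes BUBR1, a checkpoint protein that inhibits the anaphase-promoting complex (chromosome 2, 118423947 to 118467328). It had 9.1 and 11.2 FPKM in SCNT against 23.4 and 21.4 in IVF 1-cell embryos (log2 −1.08, SE 0.18, adjusted p = 0.01). Cenpq, of the CENP-O complex (chromosome 17, 41060004 to 41071500), had 97.9 and 97.8 against 157 and 157 (log2 −0.68, SE 0.14, adjusted p = 0.0293). The groups did not overlap in either gene. Both calls ended when any 1 of the 4 libraries was left out, and that of Cenpq also after quantile normalization and after rescaling each library to a common sum. Aurkb stood at 4.99 and 6.03 against 2.56 and 2.74 and was not called (log2 0.83, SE 0.20, adjusted p = 0.0546). The cumulus and granulosa markers summed to 58.0 and 78.8 FPKM in SCNT 1-cell libraries against 1.57 and 2.18 in IVF, with 6 of the 15 at or above 1 FPKM in SCNT and 0 in IVF libraries, and their part in these values was not tested.

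From the 1-cell to the 2-cell stage after IVF, 12 of 46 genes rose, where 30.4% of all genes did, and 19 fell, where 37.2% did. The median change was −0.13 for the 46 and −0.06 for all genes. Rescaling to a common sum turned these to 0.31 and 0.16, with 21 rises and 18 falls, where 37.4% and 27.9% of all genes rose and fell.

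Cenpt rose furthest, from 1.55 and 1.27 to 33.4 and 32.4 FPKM (log2 3.82, SE 0.27, adjusted p = 1.64e-07). Cenpl, which pairs with the CENP-N protein (chromosome 1, 163001023 to 163016474), rose from 2.72 and 2.91 to 27.6 and 30.4 (log2 2.97, SE 0.17, adjusted p = 2.62e-08). Kif2c, a kinesin that takes microtubules apart at wrong attachments (chromosome 4, 116832241 to 116855229), rose from 12.3 and 12 to 68.5 and 59 (log2 2.29, SE 0.24, adjusted p = 3.93e-06). Both 2-cell libraries stood far above both 1-cell libraries in each.

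Ttk (chromosome 9, 83728296 to 83765997) fell furthest, from 123 and 118 to 9.42 and 8.95 FPKM (log2 −3.58, SE 0.20, adjusted p = 2.71e-08). Nuf2 fell from 180.1 and 182 to 19.5 and 21.2 (log2 −3.10, SE 0.19, adjusted p = 3.97e-08). Cenpo, uncertain by its sequence, fell from 19.2 and 18.8 to 1.94 and 2.63 (log2 −2.62, SE 0.16, adjusted p = 5.17e-08). The stages did not overlap in these genes either. Over the same interval the 12 oocyte markers went from a sum of 13042 and 12611 to 2018 and 2058 FPKM, and their part in these falls was not tested.

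The Aurora kinases of the passenger complex moved in opposite directions. Aurkb, the kinase of dividing body cells (chromosome 11, 68859145 to 68865164), rose from 2.56 and 2.74 to 21 and 14.4 FPKM after IVF (log2 2.34, SE 0.20, adjusted p = 6.83e-07). Aurkc, known from germ cells (chromosome 7, 6948096 to 6955802), fell from 47.8 and 46.9 to 9.04 and 5.6 (log2 −2.57, SE 0.23, adjusted p = 1.09e-06). By these length-adjusted levels Aurkc was the higher of the pair at the 1-cell stage and Aurkb at the 2-cell stage, with the Aurkc level uncertain. After SCNT, Aurkb rose from 4.99 and 6.03 to 16.4 and 18.5 (log2 1.5, SE 0.20, adjusted p = 3.76e-05). Aurkc fell from 44.2 and 46.6 to 3.37 and 2.12 (log2 −3.65, SE 0.23, adjusted p = 1.34e-07). All 4 of these calls held under all 11 alternatives.

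Bub1 and Bub1b stood at like levels in IVF 1-cell embryos and apart at the 2-cell stage. Bub1, a kinase that marks centromere chromatin, had 22.5 and 22.6 FPKM in IVF 1-cell and 25.3 and 25.8 in IVF 2-cell embryos (log2 0.17, SE 0.14, adjusted p = 0.308). Bub1b had 23.4 and 21.4 and then 6.54 and 6.49 (log2 −1.64, SE 0.18, adjusted p = 5.68e-06). The stages did not overlap in Bub1b, which fell. The other named pair joins the checkpoint gene Mad2l1 and Mad2l2, whose known role lies elsewhere. Mad2l1 went from 437 and 445 to 123 and 145 (log2 −1.72, SE 0.18, adjusted p = 4.41e-06), and Mad2l2 from 21.5 and 21.1 to 48.9 and 46 (log2 1.12, SE 0.24, adjusted p = 0.00135). The first fell and the second rose, with no overlap of stages in either. Sgol1, a protector of centromere cohesion, had 40.2 and 39.2 and then 35.9 and 37.5 (log2 −0.11, SE 0.15, adjusted p = 0.566), and Cenpa 27.5 and 28.4 and then 42.1 and 34.9 (log2 0.44, SE 0.26, adjusted p = 0.151).

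Subunits of one complex lay at unequal levels, and the spread differed between stages. Over group means in IVF embryos, the most abundant of CENP-H, I, K and M exceeded the least abundant by 52.0 times at the 1-cell stage and 2.14 times at the 2-cell stage. For CENP-L and CENP-N the ratio went from 172 to 4.57, for CENP-T and CENP-W from 8.35 to 1.86, for the MIS12 complex from 535 to 20.4, and for the passenger complex with Aurkb from 200.5 to 11.6. The ratio instead widened for CENP-O, P and Q (8.26 to 33.4, with the uncertain Cenpo as the lowest), for KNL1 with Zwint (1.33 to 3.81) and for NDC80 (47.5 to 54.3). After SCNT the first of these went from 6.02 to 4.21 and KNL1 with Zwint from 1.45 to 1.26, so both narrowed. NDC80 widened there too, from 21.65 to 23.6, and the ratios that narrowed after IVF also narrowed. The MIS12 ratio at the IVF 1-cell stage rests on Nsl1, at 0.339 and 0.472 FPKM and so below 1 FPKM. All these ratios are descriptions of the means and carry no test.

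After SCNT the same step gave 11 rises, where 35.5% of all genes rose, and 23 falls, where 31.5% fell. The 12 oocyte markers went from a sum of 10367 and 10938 to 1190 and 1372 FPKM, with 11 called lower and 1 higher, and their part in these falls was not tested. The median change was −0.36 for the 46 and 0.06 for all genes. Quantile normalization gave 16 rises and 15 falls, where 30.7% and 35.3% of all genes rose and fell. Rescaling to a common sum, which moved the medians to 0.41 and 0.74, gave 23 and 12, where 50% and 16.6% did.

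Cenpt rose from 1.67 and 1.92 to 23.4 and 20.4 FPKM (log2 3.03, SE 0.27, adjusted p = 1.79e-06). Nsl1, of the MIS12 complex, rose from 0.668 and 0.382 to 4.06 and 5.48 (log2 1.91, SE 0.27, adjusted p = 5.75e-05). Cenpl rose from 3.69 and 5.37 to 19 and 15.9 (log2 1.75, SE 0.17, adjusted p = 2.93e-06). The stages were apart in all of them, as in Cenpi, at 4.45 and 3.44 and then 13.8 and 14.3 (log2 1.61, SE 0.32, adjusted p = 0.000755). Ttk fell from 152 and 147 to 22.8 and 23.2 (log2 −2.65, SE 0.20, adjusted p = 5.38e-07). Dsn1, also of MIS12, fell from 167 and 186 to 32.4 and 30.2 (log2 −2.46, SE 0.15, adjusted p = 1.26e-07), and Cenph from 118 and 123 to 19.6 and 23.6 (log2 −2.43, SE 0.15, adjusted p = 1.12e-07). The calls of these 7 genes held under all 11 alternatives.

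Of the 46 genes, 8 were called higher and 17 lower at the 2-cell stage in both kinds of embryo, where 23% and 27.2% of all genes were. Another 3, Cenpw, Incenp and Sgol2, were called higher after IVF and lower after SCNT, where 0.877% of all genes were. The comparisons share no library but were fitted together. The SCNT falls of these genes depend on scaling: after rescaling to a common sum none of the 3 was called, and Sgol2 (then 0.35) and Cenpw turned to a rise. The IVF rises of Cenpw and Incenp also lost their calls under some of the 11 alternatives, while that of Sgol2 held under all.

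**Figure D2:**
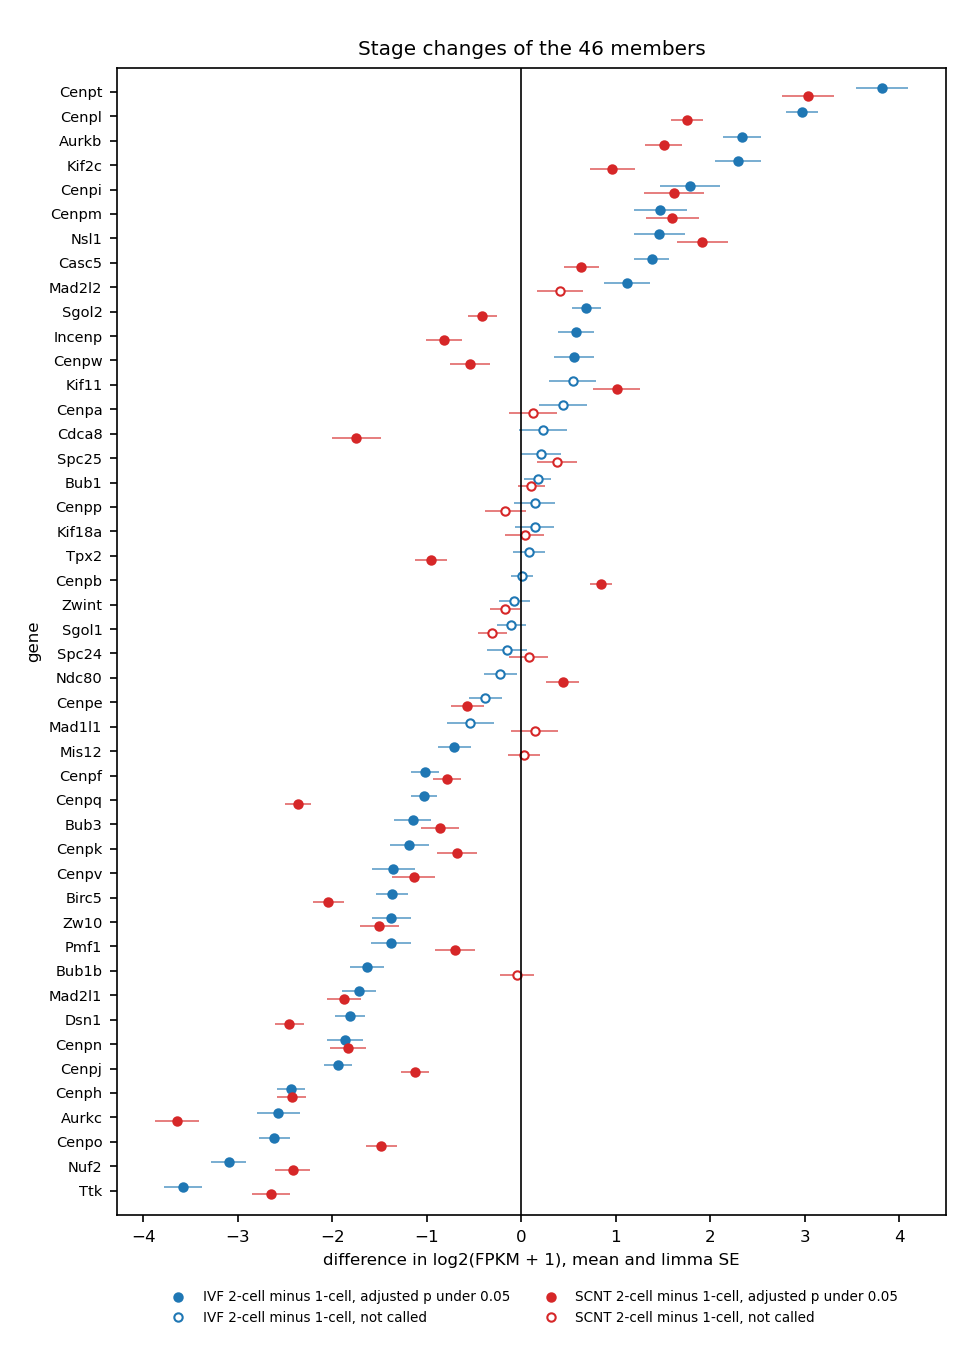
Points give the 2-cell minus 1-cell difference in log2(FPKM + 1) of each of the 46 genes after IVF (blue) and after SCNT (red), with limma standard errors; filled points passed an adjusted p under 0.05. Cenpt, Cenpl and Aurkb rose and Ttk, Nuf2 and Aurkc fell in both, while the points of Cdca8 and Bub1b lie apart.

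The difference between the stage changes, SCNT minus IVF, was tested itself. It was called positive for 6 of 46 genes, where 16.5% of all genes were, and called negative for 13, where 12.6% were. Whether called or not, 21 of the 46 lay above 0 and 25 below. The median was −0.10 for the 46 and 0.17 for all genes, and 0.11 and 0.04 after quantile normalization. Of the 19 calls, 9 held under all 15 alternatives: Bub1b, Cenpo and Cenpb positive, and Cdca8, Incenp, Cenpq, Cenpl, Sgol2 and Tpx2 negative. Leaving out any 1 library of the groups compared lowered the reported counts in both directions, among the 46 and among all genes.

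Cdca8 encodes borealin, which targets the passenger complex to centromeres (chromosome 4, 124595709 to 124614161). It went from 124 and 180.3 to 187 and 164 FPKM after IVF, with overlap between the stages, and from 244 and 209 to 69.9 and 63.3 after SCNT, with none (log2 −1.98, SE 0.36, adjusted p = 0.00221). Incenp, the scaffold of the complex, went from 21.8 and 22 to 35.4 and 31.2 and from 32.4 and 30.3 to 16.8 and 17.9 (log2 −1.40, SE 0.27, adjusted p = 0.00277). In both genes each SCNT library lay above each IVF library at the 1-cell stage, where neither was called, and below at the 2-cell stage. Cenpq went from 157 and 157 to 74.5 and 78.2 after IVF and from 97.9 and 97.8 to 18.5 and 17.9 after SCNT (log2 −1.33, SE 0.20, adjusted p = 0.000623), a fall in both.

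Bub1b went from 23.4 and 21.4 to 6.54 and 6.49 FPKM after IVF and from 9.1 and 11.2 to 9.71 and 9.75 after SCNT (log2 1.59, SE 0.25, adjusted p = 0.000959). Its SCNT stages overlapped, and its SCNT change of −0.05 turned sign under both rescalings, to 0.71 after rescaling to a common sum. Cenpo, uncertain by its sequence, went from 16 and 16.5 to 5.56 and 4.8 after SCNT (log2 1.13, SE 0.23, adjusted p = 0.00384), beside its fall after IVF. Cenpb (log2 0.83, SE 0.17, adjusted p = 0.00327) stayed below 1 FPKM in all these libraries. Sgol2 went from 42.9 and 39.9 to 66.3 and 67.9 after IVF and from 30.1 and 32.2 to 22.7 and 23.5 after SCNT (log2 −1.10, SE 0.22, adjusted p = 0.00327). Ttk (log2 0.93, SE 0.29, adjusted p = 0.0313) lost its call when any 1 of the 8 libraries was left out, and Kif2c (log2 −1.33, SE 0.34, adjusted p = 0.0126) after rescaling to a common sum and without SCNT 1-cell library 2 or IVF 2-cell library 1.

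Of the 7 passenger and shugoshin genes, 6 were called negative in this difference, or 4 after either rescaling. Of all genes 12.6% were called negative, or 13.3% after quantile normalization and 8.96% after rescaling to a common sum. Aurkc (log2 −1.08, SE 0.33, adjusted p = 0.0286) lost its call without any 1-cell library, without IVF 2-cell library 1 and without SCNT 2-cell library 2. Aurkb (log2 −0.83, SE 0.28, adjusted p = 0.0448) lost it without any library except IVF 2-cell library 2, under both rescalings and with the replicate block.

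At the 2-cell stage several inner centromere and attachment genes were lower in SCNT than in IVF embryos, and Ttk and Pmf1 were higher. Of the 46, 14 were lower, where 16.6% of all genes were, and 8 were higher, where 30.3% were. The median difference was −0.18 for the 46 and 0.23 for all genes. Quantile normalization moved these to 0.10 and 0, with 11 higher and 11 lower among the 46 and 20.7% and 20.2% among all genes. Rescaling to a common sum gave 15 and 9, where 45.2% and 10.5% of all genes were, with medians of 0.18 and 0.65. Leaving out any 1 SCNT or IVF 2-cell library lowered the reported counts in both directions, among the 46 and among all genes. A list of 8 transcripts of the 2-cell stage summed to 241 and 250 FPKM in SCNT and 2103 and 1985 in IVF embryos, with 4 of the 8 at or above 1 FPKM in SCNT and 6 in IVF libraries, and its part in the kinetochore values was not tested.

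In the inner kinetochore Cenpq had 18.5 and 17.9 FPKM in SCNT against 74.5 and 78.2 in IVF 2-cell embryos (log2 −2.01, SE 0.14, adjusted p = 1.16e-06). Cenpw, the histone-fold partner of CENP-T, had 6.78 and 10.8 against 16.6 and 18.8 (log2 −0.97, SE 0.21, adjusted p = 0.0029). Cenpl had 19 and 15.9 against 27.6 and 30.4 (log2 −0.70, SE 0.17, adjusted p = 0.00515), a call lost after rescaling to a common sum. The groups did not overlap in any of the 3.

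In the outer kinetochore 3 of 10 genes were higher and 2 lower, or 5 and 2 after quantile normalization, with a median difference of 0.26. Of all genes 30.3% were higher and 16.6% lower, or 20.7% and 20.2% after quantile normalization. The higher members of the outer kinetochore were Pmf1, Spc24 and Mis12, the last at 39 and 39.3 against 25.8 and 25.2 FPKM (log2 0.60, SE 0.17, adjusted p = 0.0132), a call lost without any 1 of the 4 libraries. Casc5, the gene of KNL1, which recruits the checkpoint, had 17.7 and 16.2 against 40.4 and 45 (log2 −1.28, SE 0.18, adjusted p = 0.000181). Among the spindle genes, Kif2c had 20.8 and 20.0 against 68.5 and 59 (log2 −1.59, SE 0.24, adjusted p = 0.000264). Tpx2, a spindle assembly factor, had 57.9 and 56.7 against 131 and 118 (log2 −1.11, SE 0.17, adjusted p = 0.000274). Both SCNT libraries lay below both IVF libraries in each, as in Dsn1, at 32.4 and 30.2 against 67.2 and 55.2 (log2 −0.94, SE 0.15, adjusted p = 0.000478), and these 4 calls held under all 11 alternatives.

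Of the 7 passenger and shugoshin genes 6 were lower, or 4 after quantile normalization and 3 after rescaling to a common sum. Of all genes 16.6%, 20.2% and 10.5% were lower in these settings. Together the 7 genes summed to 279 and 279.5 FPKM in SCNT against 544 and 542 in IVF 2-cell embryos. Cdca8 had 69.9 and 63.3 against 187 and 164 (log2 −1.38, SE 0.26, adjusted p = 0.00109). Sgol2, which encodes a protector of centromere cohesion and has an uncertain value, had 22.7 and 23.5 against 66.3 and 67.9 (log2 −1.5, SE 0.15, adjusted p = 1.86e-05). Aurkc, likewise uncertain, had 3.37 and 2.12 against 9.04 and 5.6 (log2 −1.14, SE 0.23, adjusted p = 0.00192). The groups were apart in these genes, and the 3 calls held under all 11 alternatives.

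Birc5, the gene of survivin, had 123 and 126 against 189.9 and 221 FPKM (log2 −0.71, SE 0.16, adjusted p = 0.0041), a call that ended under both rescalings. Incenp had 16.8 and 17.9 against 35.4 and 31.2 (log2 −0.90, SE 0.19, adjusted p = 0.00232), lost after rescaling to a common sum. Sgol1 had 26.8 and 28 against 35.9 and 37.5 (log2 −0.41, SE 0.15, adjusted p = 0.0463), lost under both rescalings, at the lower pseudocount and without any 1 of the 4 libraries. Aurkb, the exception in the group, was at 16.4 and 18.5 against 21 and 14.4 with overlap (log2 −0.002, SE 0.20, adjusted p = 0.998).

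Among the genes higher in SCNT embryos, Ttk had 22.8 and 23.2 against 9.42 and 8.95 FPKM (log2 1.23, SE 0.20, adjusted p = 0.000495). Pmf1, a MIS12 subunit (chromosome 3, 88198065 to 88214238), had 37.7 and 49.8 against 15.9 and 20.1 (log2 1.23, SE 0.21, adjusted p = 0.000607). Cenpo had 5.56 and 4.8 against 1.94 and 2.63 (log2 0.92, SE 0.16, adjusted p = 0.000791), within its uncertainty. Both SCNT libraries lay above both IVF libraries, and these calls held under all 11 alternatives, as did those of Spc24 and Cenpb.

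Cenpb stayed below 1 FPKM in every embryo library. It had 0.00937 and 0.0184 FPKM in IVF and 0.844 and 0.922 in SCNT 2-cell embryos (log2 0.89, SE 0.12, adjusted p = 9.88e-05). With Kdm4d it had 0.0574 and 0.0879, with the mutant 0.221 and 0.147, and in SCNT 1-cell embryos 0.0833 and 0.0159. The SCNT 2-cell libraries were thus the highest of the embryo libraries.

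Bub1b was higher in SCNT 2-cell embryos, at 9.71 and 9.75 against 6.54 and 6.49 FPKM (log2 0.51, SE 0.18, adjusted p = 0.0338), a call lost after quantile normalization and without any 1 of the 4 libraries. Its paralogue Bub1 had 21.7 and 22.5 against 25.3 and 25.8 and was not called (log2 −0.20, SE 0.14, adjusted p = 0.266), with its sign turned by both rescalings. Mad2l1, the MAD2 gene, had 93.8 and 106 against 123 and 145 and was not called (log2 −0.42, SE 0.18, adjusted p = 0.0787), with its sign turned by quantile normalization. Mad2l2 had 36.4 and 30.3 against 48.9 and 46 and was not called (log2 −0.50, SE 0.24, adjusted p = 0.109). None of these genes had overlapping groups, and neither had Cenpa, the centromeric histone (chromosome 5, 30969275 to 30977199), at 31.2 and 28.7 against 42.1 and 34.9 (log2 −0.35, SE 0.26, adjusted p = 0.287), whose sign turned after rescaling to a common sum.

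**Figure D3:**
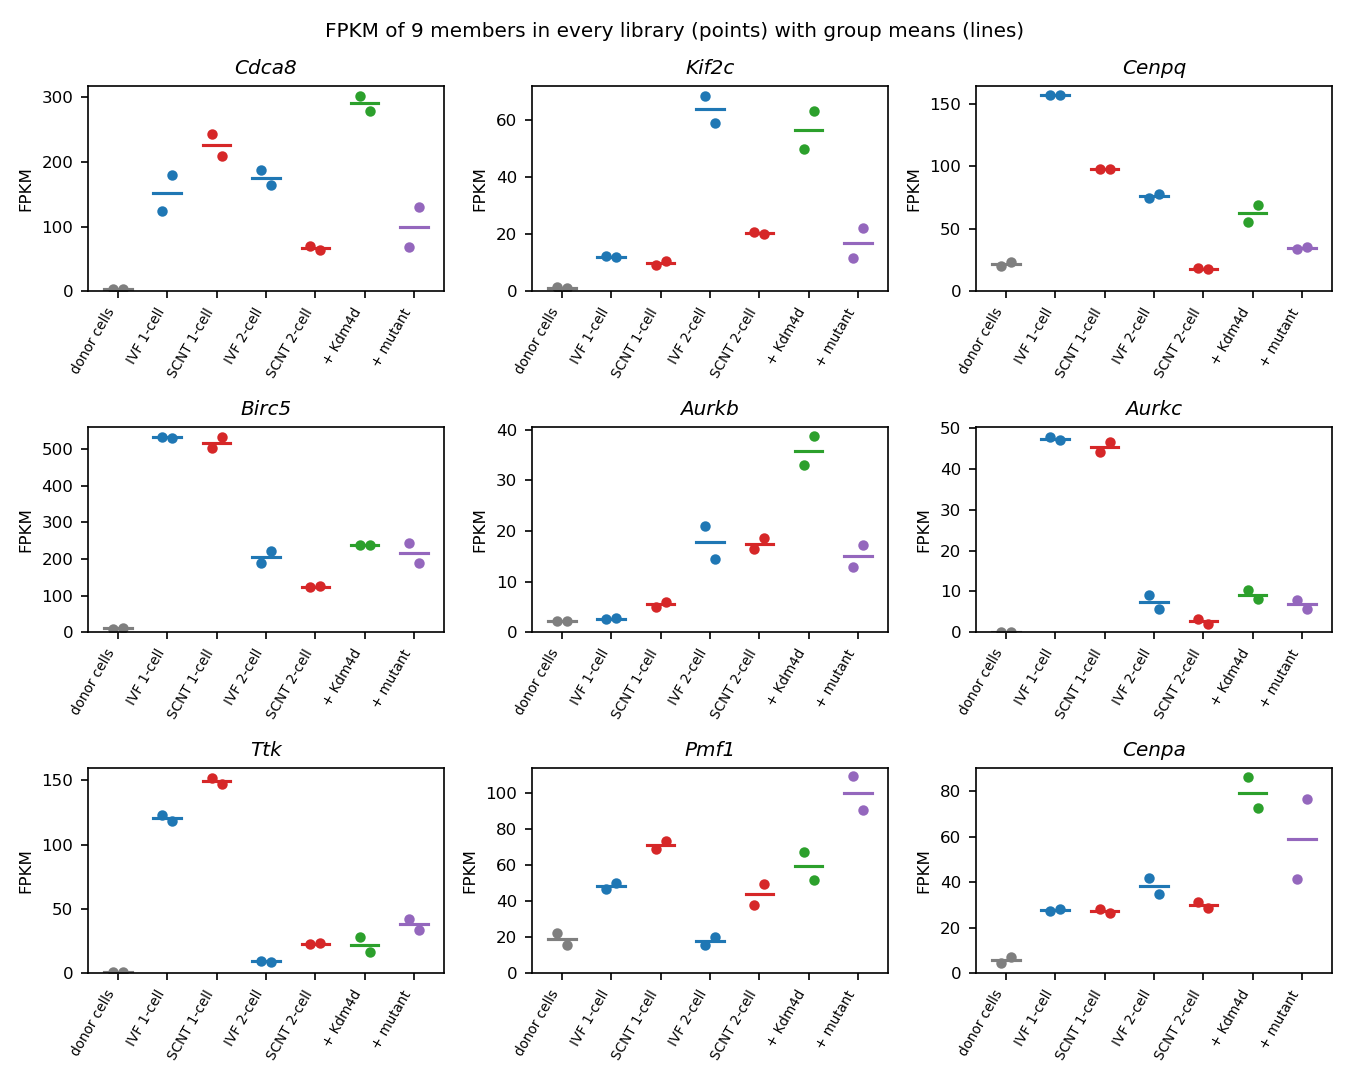
Points give the FPKM of 9 genes in each of the 14 libraries and lines the group means. Cdca8, Kif2c, Cenpq and Birc5 are lower in SCNT 2-cell than in IVF 2-cell and Kdm4d libraries, Aurkb and Aurkc change places between the stages, and Ttk and Pmf1 are lowest among embryo groups in IVF 2-cell libraries.

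With Kdm4d, SCNT 2-cell embryos had more Cdca8, Cenpq and Kif2c RNA. Of the 46, 18 were higher than in SCNT 2-cell embryos without it, where 21% of all genes were, and 5 were lower, where 18.5% were. The median difference was 0.36 for the 46 and −0.02 for all genes. Quantile normalization turned the former to −0.10, with 8 higher and 10 lower, shares near the 17.3% and 19.2% of all genes. Rescaling to a common sum moved the medians to −0.33 and −0.62, with 5 and 13, beside 7.99% and 42.9% of all genes. Leaving out SCNT 2-cell library 1 decreased the reported count of lower genes, among the 46 and among all genes. Of the 18, 5 held under all 11 alternatives (Cdca8, Cenpq, Aurkc, Kif2c and Mad2l2), and of the lower genes Cenpb did. Aurkc, Birc5, Bub3, Cenpa, Cenpl, Cenpq, Cenpw and Mad2l1 were also called higher with the mutant, against the same SCNT libraries. There none of these calls held under all 11 alternatives. The remaining genes of the 18 were not called higher with the mutant. The same SCNT 2-cell libraries serve the comparison with IVF embryos, so values are only set side by side.

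Cdca8 had 303 and 278 FPKM with Kdm4d against 69.9 and 63.3 without (log2 2.11, SE 0.26, adjusted p = 9.65e-05), and 187 and 164 in IVF embryos. Cenpq had 55.7 and 69.2 against 18.5 and 17.9 (log2 1.72, SE 0.14, adjusted p = 8.3e-06), 34.0 and 35.5 with the mutant, and 74.5 and 78.2 in IVF. Kif2c had 50.0 and 63.1 against 20.8 and 20.0 (log2 1.42, SE 0.24, adjusted p = 0.000773), and 68.5 and 59 in IVF. Both Kdm4d libraries were above both SCNT libraries in these genes. They lay above both IVF libraries for Cdca8 (not called against IVF, log2 0.72, SE 0.26, adjusted p = 0.068), below both for Cenpq, and overlapped them for Kif2c.

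Aurkc, with its uncertainty, had 10.4 and 8.07 against 3.37 and 2.12 FPKM (log2 1.46, SE 0.23, adjusted p = 0.00052). Mad2l2, which encodes REV7 of DNA repair, had 76.8 and 103 against 36.4 and 30.3 (log2 1.40, SE 0.24, adjusted p = 0.000892). Of the 7 passenger and shugoshin genes 6 were higher, or 3 after quantile normalization and 2 after rescaling to a common sum, where Incenp turned sign. Of all genes 21%, 17.3% and 7.99% were higher in these settings. The 7 genes summed to 678 and 675 FPKM against 279 and 279.5. Aurkb had 33 and 38.7 against 16.4 and 18.5 (log2 1.00, SE 0.20, adjusted p = 0.00218), lost after rescaling to a common sum. Birc5 had 239 and 238 against 123 and 126 (log2 0.93, SE 0.16, adjusted p = 0.00102), lost under both rescalings, and 244 and 189 with the mutant. Every Kdm4d library exceeded every SCNT library in these genes. The 2-cell stage transcripts summed to 1565 and 2598 FPKM with Kdm4d against 241 and 250, and the 12 oocyte markers to 3495 and 2392 against 1190 and 1372, with 5 of the 12 called higher. Their part in these values was not tested.

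Cenpa had 86.2 and 72.7 against 31.2 and 28.7 FPKM (log2 1.37, SE 0.26, adjusted p = 0.00145), lost after rescaling to a common sum. With the mutant Cenpa had 41.5 and 76.6, which overlap the Kdm4d values, and it was not called between Kdm4d and the mutant. Sgol2 had 35 and 45.3 against 22.7 and 23.5 (log2 0.76, SE 0.15, adjusted p = 0.00232), lost under both rescalings and in a fit to these 4 libraries. The direction of Mad2l1 rests on the scaling. It had 155 and 157 against 93.8 and 106 (log2 0.64, SE 0.18, adjusted p = 0.0154), but the difference was −0.16 after quantile normalization and −0.05 after rescaling to a common sum, and the call also ended without SCNT 2-cell library 1 or Kdm4d library 2.

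The lower genes were Cenpb, Mis12, Cenpj, Bub1b and Cenpf. Mis12 had 20.4 and 29 against 39 and 39.3 FPKM (log2 −0.66, SE 0.17, adjusted p = 0.00921). Cenpj, a centriole gene, had 12.1 and 11.2 against 17.9 and 19.9 (log2 −0.65, SE 0.15, adjusted p = 0.00467). Bub1b had 5.84 and 6.14 against 9.71 and 9.75 (log2 −0.62, SE 0.18, adjusted p = 0.0166). The groups did not overlap. None of the 3 was called in a fit to these 4 libraries, nor Mis12 without Kdm4d library 1, nor Bub1b without either SCNT 2-cell library or with group weights.

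With the mutant, 14 of 46 genes were higher than in SCNT 2-cell embryos, where 11.3% of all genes were, and 7 were lower, where 6.41% were. The median difference was −0.01 for the 46 and 0.01 for all genes, and −0.22 for the 46 after quantile normalization. The balance of calls turned with the scaling, to 6 higher and 10 lower after quantile normalization, where 9.83% and 10.4% of all genes were, and to 3 and 16 rescaled to a common sum, where 4.1% and 20.1% were. None of the 21 calls held under all 11 alternatives, and a fit to these 4 libraries called 0 higher and 0 lower by limma. Of all 13455 genes that fit called 0 higher and 1 lower. At an unadjusted p under 0.05 it gave 15 and 8 of the 46, and how many of all genes passed that threshold was not counted. Leaving out either SCNT 2-cell library or mutant library 1 lowered the reported counts in both directions, among the 46 and among all genes.

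Cenpv had 28.5 and 20.5 against 8.95 and 11 FPKM (log2 1.20, SE 0.23, adjusted p = 0.0059). Pmf1 had 109 and 90.4 against 37.7 and 49.8 (log2 1.18, SE 0.21, adjusted p = 0.0046), and Nuf2 56.5 and 41 against 21.9 and 28.1 (log2 0.93, SE 0.19, adjusted p = 0.00781). Mutant library 1 was the higher of its group in all 3, as in Mad2l1, at 227 and 149 against 93.8 and 106 (log2 0.88, SE 0.18, adjusted p = 0.00892). The 12 oocyte markers summed to 5858 FPKM in that library and 2851 in mutant library 2, against 1190 and 1372 in SCNT 2-cell libraries, and their part in these values was not tested. All 4 calls ended without SCNT 2-cell library 1. Aurkc, uncertain, had 7.89 and 5.78 against 3.37 and 2.12 (log2 1.07, SE 0.23, adjusted p = 0.0107), lost without SCNT 2-cell library 2 or mutant library 1.

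Lower with the mutant was Cenpe, a kinesin that carries chromosomes to the spindle equator, at 26.7 and 35.3 against 63.4 and 57 FPKM (log2 −0.95, SE 0.17, adjusted p = 0.00541). Cenpm had 7.4 and 6.75 against 15.3 and 14.6 (log2 −0.98, SE 0.28, adjusted p = 0.0326). Casc5 had 8.16 and 10.7 against 17.7 and 16.2 (log2 −0.79, SE 0.18, adjusted p = 0.0142). Both mutant libraries were below both SCNT libraries in these genes, as in Cenpf of the corona, at 23.2 and 23.8 against 39.6 and 41.2 (log2 −0.76, SE 0.15, adjusted p = 0.00693). Cenpe and Casc5 were not called without SCNT 2-cell library 1, Casc5 not without mutant library 1, and Cenpm not without any 1 of the 4 libraries.

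Between the Kdm4d and mutant embryos, 16 of 46 genes were higher with Kdm4d, where 21.4% of all genes were, and 8 were lower, where 22.5% were. The median difference was 0.21 for the 46 and −0.10 for all genes. After quantile normalization it was −0.02 for the 46, with 12 higher and 11 lower, where 20.5% and 21.4% of all genes were. A fit to these 4 libraries called 0 higher and 0 lower by limma, among the 46 and among all genes. At an unadjusted p under 0.05 it gave 13 and 4 of the 46, and how many of all genes passed that threshold was not counted. Group weights called 11 higher and 0 lower, beside 1447 and 796 of the 13455 genes tested. At an unadjusted p under 0.05 they gave 5 lower among the 46. Leaving out Kdm4d library 2 or mutant library 1 decreased the reported count of lower genes, among the 46 and among all genes.

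Kif2c had 50.0 and 63.1 FPKM with Kdm4d against 11.5 and 22.3 with the mutant (log2 1.74, SE 0.24, adjusted p = 0.000224). Cenpt had 43.1 and 42.9 against 8.19 and 19.2 (log2 1.69, SE 0.27, adjusted p = 0.000581). Cdca8 had 303 and 278 against 68.8 and 129.6 (log2 1.61, SE 0.26, adjusted p = 0.000541). The groups were apart although the mutant libraries differed widely between themselves. Cenpm, an inner kinetochore gene, had 16.3 and 34.5 against 7.4 and 6.75 (log2 1.62, SE 0.28, adjusted p = 0.000831), and Aurkb 33 and 38.7 against 12.9 and 17.1 (log2 1.21, SE 0.20, adjusted p = 0.00064). Each of these 5 calls ended in the fit to the 4 libraries and in no other of the 11 alternatives. The 2-cell stage transcripts summed to 1565 and 2598 FPKM with Kdm4d against 113 and 370, and their part in these values was not tested.

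Lower with Kdm4d was Cenpv, at 17.6 and 10.02 against 28.5 and 20.5 FPKM (log2 −0.81, SE 0.23, adjusted p = 0.0131). Ttk had 27.8 and 16.2 against 42.2 and 33.8 (log2 −0.80, SE 0.20, adjusted p = 0.0083). Zwint had 10.8 and 8.73 against 19.7 and 15.3 (log2 −0.78, SE 0.16, adjusted p = 0.00256). The groups did not overlap here, nor in Pmf1, at 67 and 51.7 against 109 and 90.4 (log2 −0.74, SE 0.21, adjusted p = 0.0137). None of the 4 was called in the fit to these libraries or with group weights, and Cenpv, Ttk and Pmf1 were not called without Kdm4d library 2 or without mutant library 1.

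None of these 4 libraries enters the SCNT to IVF comparison at the 2-cell stage. Of the 14 genes lower in SCNT embryos, 9 (64.3%) were higher with Kdm4d than with the mutant, which is 56.2% of the 16: Casc5, Cdca8, Cenpe, Cenpq, Dsn1, Incenp, Kif2c, Sgol2 and Tpx2. Over all genes these shares were 74% and 57.4%. Of the 8 genes higher in SCNT embryos, 2 (25%), Pmf1 and Ttk, were lower with Kdm4d, which is 25% of that list, and over all genes the shares were 47.2% and 63.6%.

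**Figure D4:**
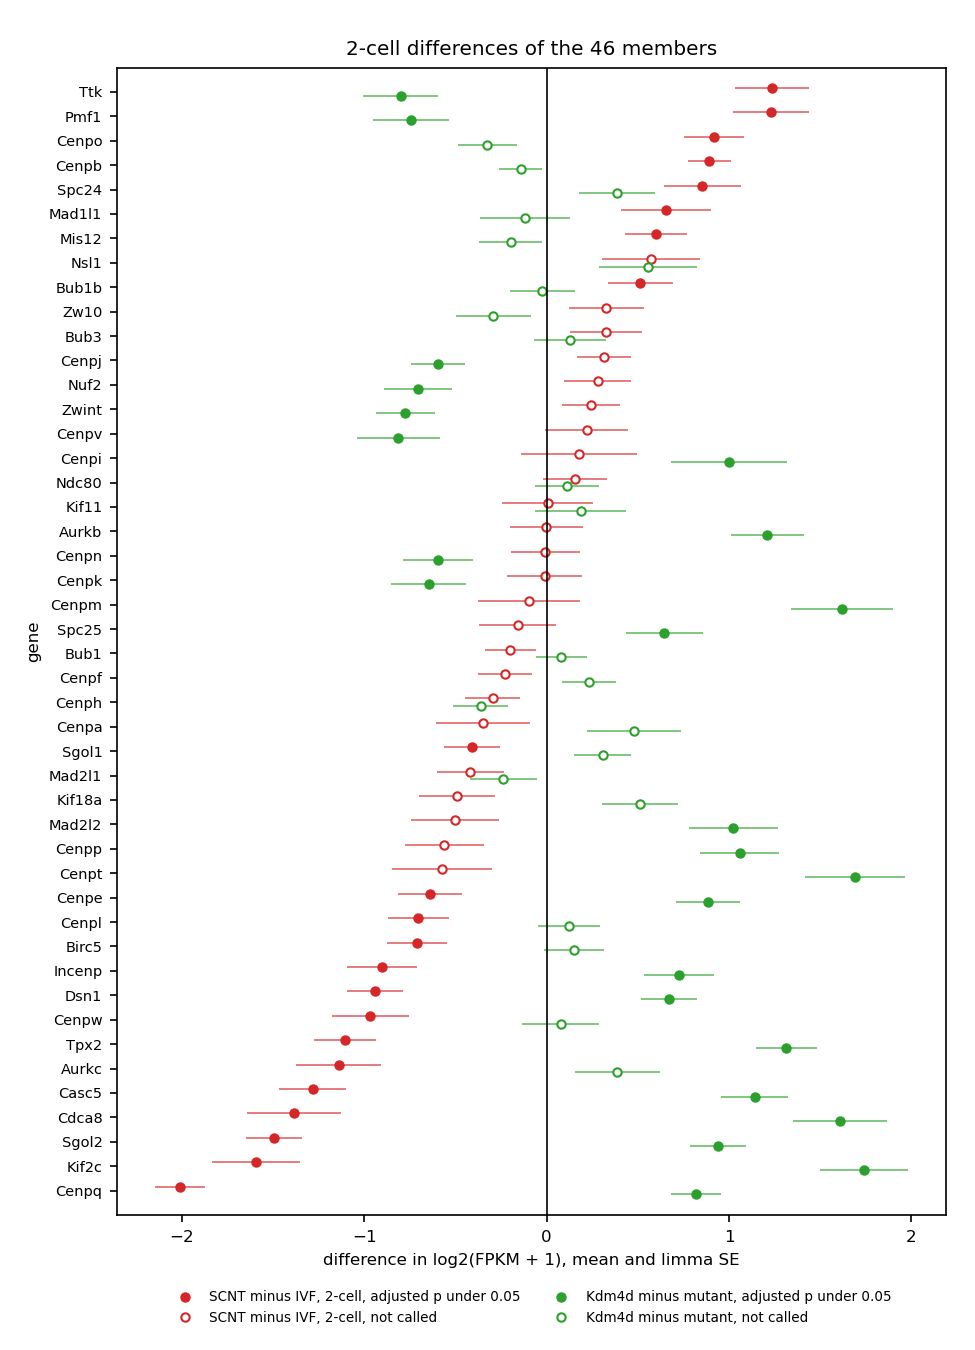
Points give, for each of the 46 genes, the difference in log2(FPKM + 1) of SCNT minus IVF 2-cell embryos (red) and of Kdm4d minus mutant embryos (green), with limma standard errors; filled points passed an adjusted p under 0.05. Cenpq, Kif2c, Sgol2 and Cdca8 are negative in red and positive in green, and Ttk and Pmf1 the reverse.

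Against IVF 2-cell embryos, SCNT embryos with Kdm4d had 9 of 46 genes higher, where 16.6% of all genes were, and 4 lower, where 3.7% were. The median difference was 0.22 for the 46 and 0.18 for all genes, and −0.01 for both after quantile normalization. The balance of calls turned to 4 higher and 8 lower after quantile normalization, where 6.82% and 7.71% of all genes were, and to 3 and 8 rescaled to a common sum, where 7.39% and 6.6% were. None of the 13 calls held under all 11 alternatives, and the fit to these 4 libraries called 0 higher and 0 lower by limma. Of all 13455 genes that fit called 104 higher and 36 lower. At an unadjusted p under 0.05 it gave 10 and 4 of the 46, and how many of all genes passed that threshold was not counted. Leaving out IVF 2-cell library 1 or 2 lowered the reported counts in both directions, among the 46 and among all genes.

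Pmf1 had 67 and 51.7 against 15.9 and 20.1 FPKM (log2 1.66, SE 0.21, adjusted p = 0.000414). Ttk had 27.8 and 16.2 against 9.42 and 8.95 (log2 1.13, SE 0.20, adjusted p = 0.00324). Bub3, a checkpoint adaptor, had 50.4 and 79.9 against 33 and 26.6 (log2 1.08, SE 0.20, adjusted p = 0.00351). The groups were apart in these genes, as in Cenpa, at 86.2 and 72.7 against 42.1 and 34.9 (log2 1.03, SE 0.26, adjusted p = 0.0164), whose call ended under both rescalings and without IVF 2-cell library 2 or Kdm4d library 1. Casc5 had 18.7 and 25.6 against 40.4 and 45 (log2 −0.93, SE 0.18, adjusted p = 0.00474), and Sgol2 35 and 45.3 against 66.3 and 67.9 (log2 −0.74, SE 0.15, adjusted p = 0.00634). Cenpf had 26.3 and 29.5 against 46.1 and 48.9 (log2 −0.75, SE 0.15, adjusted p = 0.00482), and Cenpe 49.5 and 66.7 against 94.8 and 93.5 (log2 −0.70, SE 0.17, adjusted p = 0.0159). Both Kdm4d libraries lay below both IVF libraries in these 4, of which Casc5, Sgol2 and Cenpe were not called without IVF 2-cell library 2. Cenpe was also not called without IVF 2-cell library 1 or Kdm4d library 1.

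Genes that work beside the kinetochore were taken from further lists. Among 15 kinetochore and CENP-A loading genes under other symbols, 6 were lower and 1 higher in SCNT than in IVF 2-cell embryos, and 8 were higher and 1 lower with Kdm4d than with the mutant. Of all genes 16.6% were lower and 30.3% higher in the former comparison, and 21.4% higher and 22.5% lower in the latter. After quantile normalization the counts were 6 lower and 3 higher, where 20.2% and 20.7% of all genes were, and 7 higher and 3 lower, where 20.5% and 21.4% were. The single genes of these lists described next were chosen after their values were seen. Apitd1, the gene of CENP-S, had 77.9 and 69.5 against 269 and 274 FPKM in SCNT and IVF embryos (log2 −1.87, SE 0.18, adjusted p = 1.3e-05), and 207 and 232 against 97.6 and 85.8 with Kdm4d and the mutant (log2 1.25, SE 0.18, adjusted p = 0.000305). Ska1, a microtubule coupler, had 23.3 and 22.2 against 67.7 and 69.6 (log2 −1.55, SE 0.20, adjusted p = 0.000107), and 70.5 and 113 against 29.2 and 35.3 (log2 1.45, SE 0.20, adjusted p = 0.000261). Neither pair of groups overlapped in either gene.

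Of 14 mitotic kinases, cyclins and their regulators, 5 were lower and 2 higher in SCNT embryos, where 16.6% and 30.3% of all genes were, and 6 were higher with Kdm4d than with the mutant, where 21.4% were, or 3 higher and 2 lower after quantile normalization. Cdk1, the kinase that drives mitosis, had 73.7 and 67.4 against 194 and 173 FPKM (log2 −1.37, SE 0.24, adjusted p = 0.000769), and 178 and 311 against 60.9 and 92.1 (log2 1.64, SE 0.24, adjusted p = 0.00033). The anaphase-promoting complex list, beside the same shares of all genes and 22.5% lower with Kdm4d, had 4 of 18 lower and 3 higher in SCNT embryos, and 7 higher and 3 lower with Kdm4d. These were 5 and 3 and then 5 and 3 after quantile normalization, where 20.2% lower and 20.7% higher, then 20.5% higher and 21.4% lower, were the shares of all genes. Its activator Cdc20, the target of the checkpoint, had 26.6 and 24.3 against 63.6 and 52.9 (log2 −1.16, SE 0.19, adjusted p = 0.000406), and 72.5 and 95.3 against 24.9 and 32.4 (log2 1.51, SE 0.19, adjusted p = 0.000115). Both genes separated both pairs of groups.

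Of 17 cohesin and separase genes, 9 were lower and 2 higher in SCNT embryos, and 8 higher and 1 lower with Kdm4d than with the mutant. Of 32 spindle motor and microtubule genes, 10 were lower and 6 higher in SCNT embryos, where 16.6% and 30.3% of all genes were, and 14 higher and 2 lower with Kdm4d, where 21.4% and 22.5% were. Of 8 condensin genes, 1 was lower and 1 higher, and 3 were higher with Kdm4d. After quantile normalization the SCNT and IVF counts were 6 lower and 4 higher, 8 and 8, and 1 and 2 for these 3 lists, beside 20.2% and 20.7% of all genes. For Kdm4d against the mutant they were 6 higher and 3 lower, 9 and 3, and 1 and 1, beside 20.5% and 21.4% of all genes. Rescaling to a common sum gave 4 lower and 4 higher cohesin genes and 7 and 9 motor genes in SCNT against IVF embryos. Of all genes 10.5% were then lower and 45.2% higher.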

How the data were processed

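RNA-seq libraries were aligned with Novoalign (version not given) and quantified with Cufflinks 2.0.2 on mm9, per the submitters' processing notes; for annotation, filters and reads with several places nothing is stated in the sources used here. The authors deposited 1 table of FPKM values for 14 libraries. Its 790 short RNA entries were left out, 710 entries sharing a symbol were collapsed, and 22498 symbols remained. Start positions are printed with 1 added.

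FPKM values are not counts, so no count test was run. Values were taken as log2(FPKM + 1), with the pseudocount of 1, and fitted with limma 3.58.1 (trend, R 4.3.3) on 7 group means, with 7 residual degrees of freedom and a median of 4.72 prior degrees of freedom. Tests covered the 13455 genes that reached 1 FPKM in 2 libraries or more, with Benjamini-Hochberg adjustment within each of 10 comparisons and a threshold of 0.05.

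Named genes were, in each comparison, among called members without overlap, the 4 that rose most and the 4 that fell most. The pairs Aurkb and Aurkc, Bub1 and Bub1b, Sgol1 and Sgol2, Mad2l1 and Mad2l2, and Cenpa were named by rule throughout. The values of these pairs and of Cenpa are printed for some comparisons only, and other genes are given for their role. Members and lists were chosen with earlier results of these data known. Replicate numbers do not pair the libraries: correlations of same-numbered deviations ran from −0.155 to 0.191. Absolute depth is unknown, so no counting intervals are given. Alternatives were a pseudocount of 0.1, no filter, quantile normalization, rescaling each library to a common sum, a fit to the compared groups alone, group weights, a replicate block, and leaving out each library.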

Additional observations from a re-analysis of the deposited data

Results flagged for a closer look

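For 11 genes the 2-cell minus 1-cell change differed between SCNT and IVF embryos by limma's test of that difference (SCNT minus IVF, log2). It was negative for Cdca8 (−1.98), Incenp (−1.40), Cenpq (−1.33), Kif2c (−1.33), Sgol2 (−1.10), Aurkc (−1.08) and Aurkb (−0.83). It was positive for Cenpb (0.83), Ttk (0.93), Cenpo (1.13) and Bub1b (1.59). The genes are those named by the rule and called in that test, so other called members are not among them. The values of Aurkc, Sgol2 and Cenpo are uncertain by shared sequence.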

How the results depend on the processing

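Counts are of the 46 genes, higher then lower unless one is named. With 2 libraries a group and unknown depth, small differences of low genes cannot be told from spread. In SCNT against IVF 1-cell embryos, higher calls were 1 at a pseudocount of 0.1, 1 rescaled to a common sum, 5 in a fit to the compared groups alone and 9 with group weights, and lower calls 1 after quantile normalization, 1 rescaled, 16 and 16. Rescaling to a common sum gave 21 rises after IVF and 23 after SCNT, with SCNT falls of 12, or 15 after quantile normalization. For the difference of stage changes, positive calls were 10 rescaled, 11 in the groups alone and 11 with group weights, and negative calls 8 without a filter and 8 rescaled. SCNT against IVF 2-cell embryos gave 15 and 9 rescaled. Kdm4d against SCNT gave 8 and 10 after quantile normalization, 5 and 13 rescaled, 10 and 1 in the groups alone, and 3 lower with group weights. The mutant against SCNT gave 6 and 10 after quantile normalization, 3 and 16 rescaled, 0 and 0 in the groups alone, and 5 and 1 with group weights. Kdm4d against the mutant gave 0 and 0 in the groups alone and 0 lower with group weights. Kdm4d against IVF gave 4 and 8 after quantile normalization, 3 and 8 rescaled, and 0 and 0 in the groups alone. Unadjusted counts beside these zeros stand in the report. Sign turns of the named single genes, on the log2 scale, came from the scalings and from leaving out libraries. Rescaled to a common sum they were Aurkb 0.137 in donor cells, Aurkc 0.05 and Cenpa 0.081 in SCNT 1-cell embryos, Sgol1 0.414 in the IVF stage change, and Bub1b 0.713, Sgol1 0.462 and Sgol2 0.351 in the SCNT stage change. In the difference of stage changes they were Bub1 0.182, Sgol1 0.048 and Mad2l1 0.091, and in SCNT against IVF 2-cell embryos Aurkb 0.362, Bub1 0.158 and Cenpa 0.008. They were Sgol1 −0.347 and Mad2l1 −0.052 in Kdm4d against SCNT, Sgol1 −0.433 and Mad2l2 −0.085 in the mutant against SCNT, Bub1 −0.144 in Kdm4d against the mutant and Mad2l1 −0.107 in Kdm4d against IVF. After quantile normalization they were, in the same order, Cenpa 0.042 (SCNT 1-cell), Sgol1 0.07 (IVF), Bub1b 0.003 and Sgol1 0.076 (SCNT), Bub1 0.104, Sgol1 0.006 and Mad2l1 0.171 (difference), Aurkb 0.121, Bub1 0.013 and Mad2l1 0.156 (SCNT against IVF 2-cell), Sgol1 −0.178 and Mad2l1 −0.155 (Kdm4d against SCNT), Sgol1 −0.194 (mutant against SCNT) and Bub1 −0.167 (Kdm4d against the mutant). Of all these Sgol2 in the SCNT stage change and Mad2l1 in Kdm4d against SCNT were called as reported. Leaving out 1 library crossed 0 for Cenpa in SCNT 1-cell embryos (−0.065 to 0.005), Bub1b in the SCNT stage change (−0.183 to 0.088), Aurkb in SCNT against IVF 2-cell embryos (−0.259 to 0.256), Bub1 in Kdm4d against SCNT (−0.137 to 0.074), Sgol1 in the mutant against SCNT (−0.015 to 0.075), Bub1 (−0.025 to 0.186), Bub1b (−0.054 to 0.007) and Mad2l1 (−0.536 to 0.062) in Kdm4d against the mutant, and Sgol1 in Kdm4d against IVF (−0.243 to 0.098). The cause was not tested. Leaving out 1 library gave 3 to 4 and 37 to 39 in donor cells, 0 and 0 lower in SCNT 1-cell embryos, 10 to 11 and 19 to 19 in the IVF and 9 to 12 and 19 to 21 in the SCNT stage change, and 3 to 5 and 6 to 10 in their difference. It gave 5 to 6 and 12 to 13 in SCNT against IVF 2-cell embryos, 12 to 23 and 3 to 5 in Kdm4d against SCNT, 2 to 13 and 2 to 8 in the mutant against SCNT, 13 to 20 and 3 to 9 in Kdm4d against the mutant, and 4 to 11 and 1 to 6 in Kdm4d against IVF. A lone library is then assumed to vary like the other groups, and the counts of all genes changed in these fits too. With the replicate block the counts were, in the order of the report, 4 and 38, 0 and 2, 12 and 19, 10 and 23, 6 and 10, 7 and 15, 18 and 6, 12 and 7, 16 and 8, and 9 and 4, and of the single genes 151 kept direction and side of the threshold and 1 lost its call. Over all alternatives 1480 values of named single genes kept direction and side of the threshold, 173 lost a call, 40 gained one and 43 turned sign.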
